A study of Mus musculus with 12 samples.

Results

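The 10 genes described here are expressed in the hepatocytes around the central vein of the liver lobule and depend there on Wnt signalling. They are Glul, Oat, Slc1a2, Rhbg, Lgr5, Axin2, Tbx3, Cyp2e1, Rnf43 and Znrf3, taken by gene symbol from the platform annotation with the probe set of highest mean for each gene. All 10 were measured, among 22180 genes with 1 symbol. RNA came from the liver of male C57BL6 mice, with 1 Affymetrix array for each of 12 samples in 4 groups of 3. Low-fat control mice ate a diet with 10% of its energy from fat, and high-fat control mice one with 45%. Low-fat MSX and high-fat MSX mice ate the same diets with 0.5% (w/w) of MSX, a maple syrup extract enriched in phenols. Feeding was ad libitum for 12 weeks, from 6 to 18 weeks of age.

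Endothelial cells of the central vein secrete Wnt ligands and R-spondins, which stabilise beta-catenin in the neighbouring hepatocytes. R-spondins bind Lgr receptors and hold back the ligases Rnf43 and Znrf3, which otherwise remove Frizzled receptors from the cell surface. Pericentral hepatocytes take up ammonia and glutamate and make glutamine, while periportal hepatocytes run the urea cycle and gluconeogenesis.

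The hepatocyte markers Alb, Apoa1, Apob, Ttr, Hnf4a, Tat and Fgb lay at 10.5 or above on the log2 scale in every array, and array medians over all probe sets lay between 4.68 and 4.75. High-fat control replicate 1 stood apart in markers of stellate cells, cholangiocytes and lymphocytes. Each gene was set against its own 12-array mean, and the median of a list was taken per array. In that array the list medians were 0.89 for stellate cells, 0.74 for cholangiocytes, 0.55 for macrophages with Kupffer cells and 0.45 for lymphocytes. The endothelial markers lay at 0.09 and the hepatocyte markers at −0.06 in that array. Macrophage and endothelial markers varied between control arrays on both diets. The macrophage list lay at −0.64 in high-fat control replicate 3 and at −0.50 and −0.41 in low-fat control replicates 1 and 2, and the endothelial list at −0.55 in low-fat control replicate 2 and −0.33 in high-fat control replicate 3. In the other high-fat control arrays the stellate cell markers lay between −0.15 and 0.00.

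Upstream sequences are shown for Oat, the member called with the extract, and for 3 metabolic members beside it, Glul, Cyp2e1 and Slc1a2. Each is the run of 250 bases before a transcription start in RefSeq on build GRCm38.p6, written 5′ to 3′ on the gene's strand. Capitals mark a match to the letters CTTTGAA or CTTTGAT or to the letters CTTTGTA or CTTTGTT on either strand, the core that TCF and LEF factors, the partners of beta-catenin, are known to bind. The Oat run lies at chr7:132576399-132576648 on the minus strand and that of Glul at chr1:153899679-153899928 on the plus strand. Those of Cyp2e1 and Slc1a2 lie on the plus strand at chr7:140763569-140763818 and chr2:102706188-102706437.
Oat: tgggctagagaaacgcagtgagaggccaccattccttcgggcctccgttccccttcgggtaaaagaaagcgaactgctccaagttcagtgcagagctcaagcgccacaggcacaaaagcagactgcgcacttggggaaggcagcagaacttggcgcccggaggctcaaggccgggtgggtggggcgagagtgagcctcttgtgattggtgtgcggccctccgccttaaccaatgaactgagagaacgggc
Glul: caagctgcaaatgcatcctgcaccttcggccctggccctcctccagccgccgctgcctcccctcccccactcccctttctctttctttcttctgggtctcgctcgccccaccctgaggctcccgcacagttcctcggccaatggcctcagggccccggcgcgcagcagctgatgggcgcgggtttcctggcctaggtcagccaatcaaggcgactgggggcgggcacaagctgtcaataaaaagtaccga
Cyp2e1: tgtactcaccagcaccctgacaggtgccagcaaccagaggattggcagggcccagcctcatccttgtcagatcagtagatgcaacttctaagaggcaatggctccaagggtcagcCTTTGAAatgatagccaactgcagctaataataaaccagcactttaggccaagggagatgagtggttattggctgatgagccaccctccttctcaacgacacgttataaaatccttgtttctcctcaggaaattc
Slc1a2: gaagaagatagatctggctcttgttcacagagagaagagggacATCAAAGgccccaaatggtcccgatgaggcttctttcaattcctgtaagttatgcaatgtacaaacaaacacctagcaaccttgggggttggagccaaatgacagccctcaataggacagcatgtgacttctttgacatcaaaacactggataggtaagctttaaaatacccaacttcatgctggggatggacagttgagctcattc

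The Cyp2e1 run holds 1 match, which begins 135 bases before the start, and the Slc1a2 run holds 1, which begins 207 bases before it. The runs of Oat and Glul hold 0. The Slc1a2 run lies inside the annotated span of the gene, before one of its later starts. Of the 10 members, 6 had a window in the RefSeq table, and 2 of their 7 windows held a match, beside 14.8% of all 32851 windows of that length. A match is a description of these letters in a short window.

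Oat, ornithine aminotransferase, was lower in the mice fed the extract on both diets and was the member past the threshold. The enzyme converts ornithine and 2-oxoglutarate into glutamate and a proline precursor in mitochondria, and it lies in the same pericentral cells as glutamine synthetase. On the low-fat diet the control arrays read 11.97, 12.12 and 11.89 on the log2 scale and the MSX arrays 11.30, 11.48 and 11.06. On the high-fat diet the control arrays read 11.65, 11.81 and 11.83 and the MSX arrays 11.32, 11.36 and 11.37. All 6 MSX arrays, between 11.06 and 11.48, lay below all 6 control arrays, between 11.65 and 12.12.

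With the extract on the low-fat diet Oat fell by 0.71 on the log2 scale (SE 0.12, limma adjusted p = 0.0492), from 11.99 ± 0.12 to 11.28 ± 0.21 (SD, n = 3), which is 1.64-fold lower. On the high-fat diet the difference was −0.41 (SE 0.12), with unadjusted p = 0.00554 and adjusted p = 0.535, from 11.76 ± 0.10 to 11.35 ± 0.02. Averaged over both diets Oat fell by 0.56 (SE 0.09, limma adjusted p = 0.0143), which is 1.48-fold lower. The effects on both diets differed by 0.30 (SE 0.18, limma adjusted p = 0.955), so that a difference between the diets was not shown. Without extract Oat differed by −0.23 between the high-fat and the low-fat diet (SE 0.12, limma adjusted p = 0.786), and with extract by 0.07 (limma adjusted p = 0.999). The comparison of diets without extract and that of the extract on the low-fat diet share the low-fat control arrays. In whole liver, fewer cells of a type and less RNA per cell cannot be told apart.

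With all 41345 deposited probe sets in the fit and the adjustment, in place of 1 for each named gene, both calls of Oat were lost, at limma adjusted p = 0.171 on the low-fat diet and 0.0573 for the average. That fit was added after the values were seen. With 1 probe set per gene, the call of Oat on the low-fat diet was lost with only its 6 arrays in the fit (limma adjusted p = 0.224), with the mean of each gene's probe sets (0.0503), and with any 1 of the 6 arrays left out, at differences between −0.81 and −0.60 and adjusted p between 0.055 and 0.217. The average over both diets kept its call with 10 of the 12 arrays left out in turn and lost it without low-fat control replicate 2 (difference −0.53, adjusted p = 0.0527) or low-fat MSX replicate 1 (difference −0.57, adjusted p = 0.051).

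**Figure D1:**
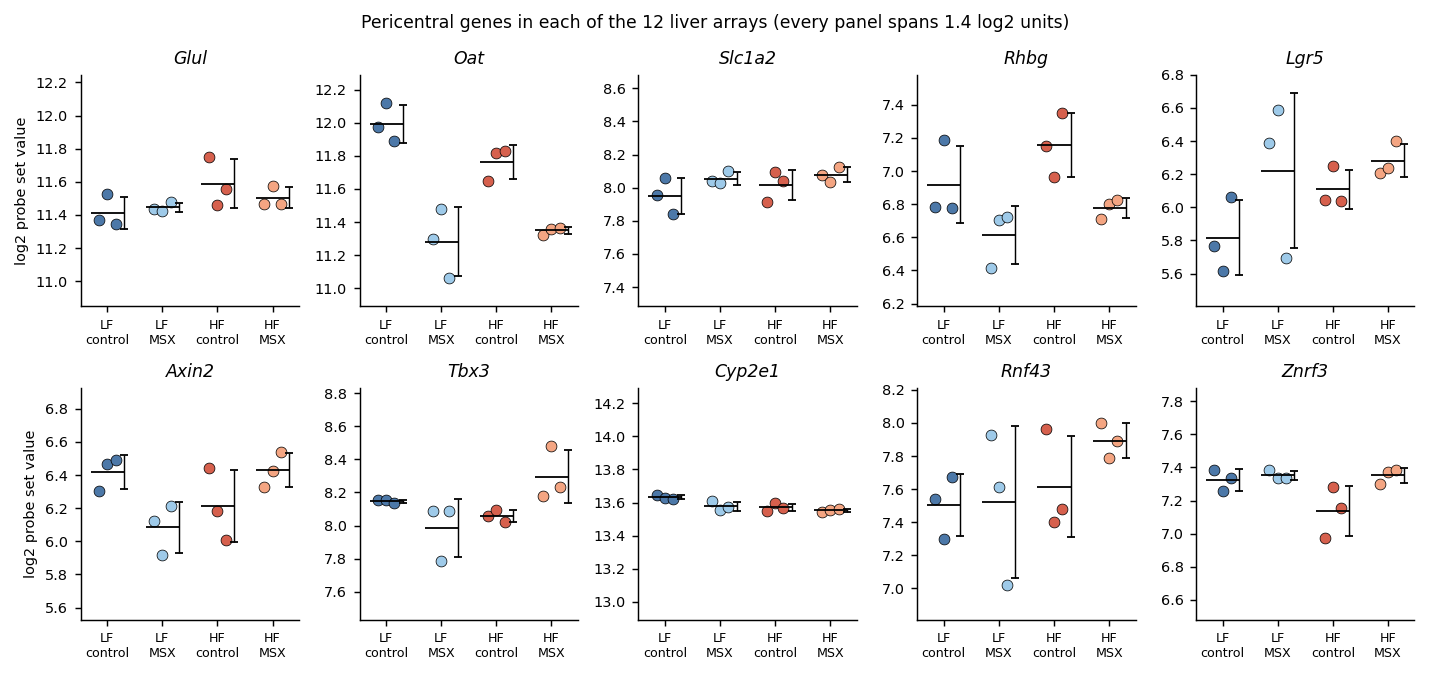
Log2 probe set values of the 10 members, with 1 point per array, a line at the mean and a bar of ± 1 SD for each group of 3 (LF, low-fat; HF, high-fat). Every panel spans the same length of the log2 scale, and the 6 MSX arrays of Oat lie below its 6 control arrays.

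Glul, glutamine synthetase, the enzyme that joins ammonia to glutamate and the classic label of the innermost ring of hepatocytes, stayed within a narrow range. The low-fat control arrays read 11.37, 11.52 and 11.34 and the low-fat MSX arrays 11.44, 11.42 and 11.48. The high-fat control arrays read 11.75, 11.46 and 11.56 and the high-fat MSX arrays 11.47, 11.58 and 11.47. The groups overlapped in each of the 4 comparisons of single groups. The difference with extract was 0.03 on the low-fat diet (95% interval −0.21 to 0.27) and −0.09 on the high-fat diet (−0.33 to 0.15). The highest value, 11.75, was that of high-fat control replicate 1, and the diet difference without extract was 0.18 with that array (limma adjusted p = 0.818) and 0.10 without it. A dimmer probe set for Glul, between 5.04 and 6.35, differed by −0.18 on the low-fat and 0.16 on the high-fat diet with extract, both opposite in sign to the brighter one. Mean values over both probe sets therefore gave −0.07 and 0.04.

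Rhbg, an ammonia transporter of the Rhesus family, had the lowest p after Oat in the average extract effect. The low-fat control arrays read 6.79, 7.19 and 6.78, and the low-fat MSX arrays 6.42, 6.70 and 6.72. The high-fat control arrays read 7.15, 6.97 and 7.35, and the high-fat MSX arrays 6.71, 6.80 and 6.82. Within each diet every MSX array lay below every control array. In random order, 3 arrays lie apart from 3 others without overlap with a probability of 0.1. The share of all genes without overlap was not counted, here or for the other members. The average extract difference was −0.34 (SE 0.10), with unadjusted p = 0.0057 and limma adjusted p = 0.264, so that Rhbg did not pass the threshold. Slc1a2, a glutamate transporter that pericentral hepatocytes share with astrocytes, lay between 7.84 and 8.13 in all arrays. Its average extract difference was 0.08 (95% interval −0.08 to 0.24).

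Cyp2e1, the cytochrome that oxidises ethanol and activates acetaminophen, lay between 13.54 and 13.64 in all 12 arrays, close to the highest value on any array, 14.1. Its group means were 13.63 ± 0.01 in low-fat control, 13.58 ± 0.03 in low-fat MSX, 13.57 ± 0.02 in high-fat control and 13.55 ± 0.01 in high-fat MSX (SD, n = 3). Low-fat control arrays lay above those of low-fat MSX and of high-fat control without overlap, by 0.05 and 0.06 (limma adjusted p = 0.922 and 0.942). How far signals so close to the top of the scale can still rise or fall was not tested.

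The remaining 5 members act in the Wnt pathway itself or mark its activity, and 0 of them passed the threshold in any of the 7 comparisons by limma. Axin2, a scaffold of the complex that degrades beta-catenin and a feedback target of the pathway, had the lowest p of the 5. Its low-fat control arrays read 6.30, 6.47 and 6.49 and its low-fat MSX arrays 6.12, 5.91 and 6.21, a lower set without overlap. The high-fat control arrays read 6.44, 6.18 and 6.01 and the high-fat MSX arrays 6.33, 6.42 and 6.54, which overlapped. The extract difference was −0.34 on the low-fat diet (unadjusted p = 0.0265, limma adjusted p = 0.553) and 0.22 on the high-fat diet (unadjusted p = 0.128, limma adjusted p = 0.811). The difference of both effects was 0.55 (SE 0.19), with unadjusted p = 0.012 and limma adjusted p = 0.955. The other Axin2 probe set, dimmer at 4.99 to 5.68, gave −0.20 and −0.09 with extract and a difference of 0.11 between the diets.

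Tbx3, a T-box transcription factor and Wnt target in pericentral hepatocytes, showed a similar order of groups. Its low-fat control arrays read 8.15, 8.15 and 8.14 and its low-fat MSX arrays 8.09, 7.79 and 8.09. The high-fat control arrays read 8.06, 8.10 and 8.02 and the high-fat MSX arrays 8.18, 8.48 and 8.23. MSX arrays thus lay below the controls on the low-fat diet and above them on the high-fat diet, without overlap on either. Arrays in random order separate so with a probability of 0.1 on each diet, and the share of all genes that do was not counted. The extract difference was −0.16 on the low-fat diet (SE 0.12, limma adjusted p = 0.78) and 0.24 on the high-fat diet (SE 0.12, limma adjusted p = 0.75). The difference of both effects was 0.40 (SE 0.17), with unadjusted p = 0.0358 and limma adjusted p = 0.955. It was 0.30 without low-fat MSX replicate 2 and 0.31 without high-fat MSX replicate 2.

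Lgr5, an R-spondin receptor, ranged from 5.62 to 6.59. Its extract difference was 0.41 on the low-fat diet (95% interval −0.02 to 0.83) and 0.17 on the high-fat diet (−0.25 to 0.60). The low-fat MSX arrays of Lgr5 read 6.39, 6.59 and 5.69, and the last of them lay inside the range of the low-fat controls, 5.62 to 6.06. Its other probe set, between 4.40 and 4.79, gave −0.07 and 0.04.

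Among the ligases, Rnf43 read 7.93, 7.61 and 7.02 in low-fat MSX, an SD of 0.46 (n = 3) that only Lgr5 exceeded there among the members. Its extract difference was 0.02 on the low-fat diet (95% interval −0.44 to 0.47) and 0.28 on the high-fat diet (−0.18 to 0.73). Znrf3 read 6.98, 7.28 and 7.16 in high-fat control and 7.30, 7.37 and 7.39 in high-fat MSX, without overlap. That difference was 0.22 (SE 0.11, limma adjusted p = 0.75). The lowest value of Znrf3 was that of high-fat control replicate 1, and without that array the difference was 0.14. The low-fat arrays of Znrf3 lay between 7.26 and 7.38 with and without extract.

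**Figure D2:**
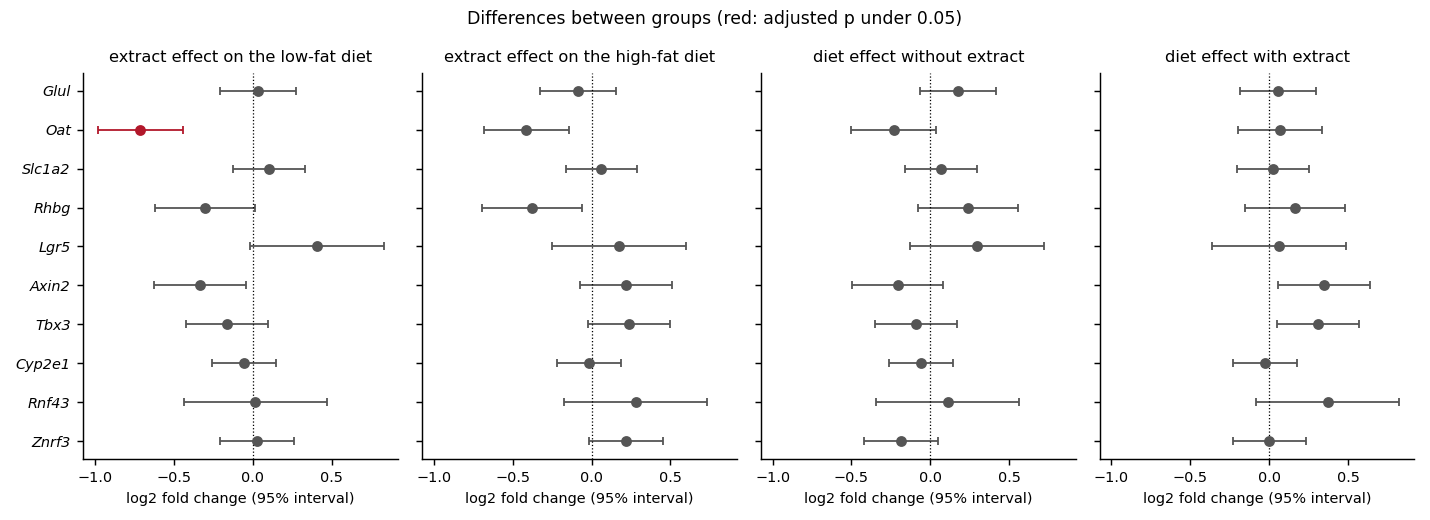
Log2 fold changes of the 10 members in the 4 comparisons of single groups, MSX minus control and high-fat minus low-fat, with the 95% interval of the fit. Red marks an adjusted p under 0.05, which Oat reached with the extract on the low-fat diet at −0.71, while intervals of most other members include 0.

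Counts of members were read against all 22180 genes, at an adjusted p under 0.05 and at an unadjusted p under 0.05. With the extract on the low-fat diet 1 of 10 members was called, Oat, where 0.158% of all genes were called, and 2 had an unadjusted p under 0.05, Oat and Axin2, where 8.05% of all genes did. In the average extract effect 1 of 10 was called, again Oat, beside 0.261% of all genes, and 2 had an unadjusted p under 0.05, Oat and Rhbg, beside 9.66%. For the extract within the high-fat diet 0 members were called beside 0.0361% of all genes, and 2 had an unadjusted p under 0.05, Oat and Rhbg, beside 6.99%. With counts of 2 in 10, these shares rest on single genes.

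For the diet without extract 0 members were called and 0 had an unadjusted p under 0.05 by limma, beside 0.018% and 6.78% of all genes. For the diet with extract 0 were called and 2, Axin2 and Tbx3, had an unadjusted p under 0.05, beside 0% and 4.56%. For the difference of both extract effects these counts were again 0 and 2, the same genes, beside 0% and 5.09%. The average diet effect had 0 and 0 members beside 0.0225% and 5.94% of all genes. The median log2 fold change of the 10 members was −0.02 with the extract on the low-fat diet, 0.12 with it on the high-fat diet, 0.00 for the diet without extract and 0.06 for the diet with it. The median of all genes lay between −0.00 and 0.01 in these comparisons.

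Seen across arrays, the members did not vary as 1 group. Of 45 pairs, 21 had a Pearson r above 0 over the 12 arrays, and the median r was −0.05. In a two-sided permutation test with 100000 resamples 0 passed an adjusted p under 0.05, by Pearson or by Spearman, while 6 had an unadjusted Pearson p under 0.05. The test permuted all arrays without regard to the 4 groups, so its p does not separate group differences from variation within groups. With values centred within groups, which were not tested, 32 of the 45 pairs kept the sign of r. Glul and Znrf3 had the lowest r, −0.80 (permutation p = 0.00668, adjusted p = 0.11) with a Spearman rho of −0.55 (permutation p = 0.0669, adjusted p = 0.494). Without the 2 arrays farthest from the median of Glul r was −0.50, and with values centred within groups it was −0.82. High-fat control replicate 1 held both the highest Glul, 11.75, and the lowest Znrf3, 6.98. That array is left out of the r of −0.50 but kept in the r of −0.82. Axin2 and Tbx3 had the highest r, 0.69 (permutation p = 0.00734, adjusted p = 0.11), with rho = 0.65 (permutation p = 0.0254, adjusted p = 0.494), an r of 0.38 without the 2 farthest arrays of Axin2 and of 0.41 centred within groups.

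Without high-fat MSX replicate 2 these 2 pairs passed the threshold, at r = −0.91 and r = 0.79 (permutation, adjusted p = 0.0268 for both). Oat and Glul had an r of −0.07 over the 12 arrays and of −0.17 centred within groups. Oat and Rhbg had an r of 0.60 (permutation p = 0.0379, adjusted p = 0.284), with rho = 0.60 (permutation p = 0.0429, adjusted p = 0.494), which was 0.51 without the 2 arrays farthest from the median of Oat and 0.26 centred within groups.

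**Figure D3:**
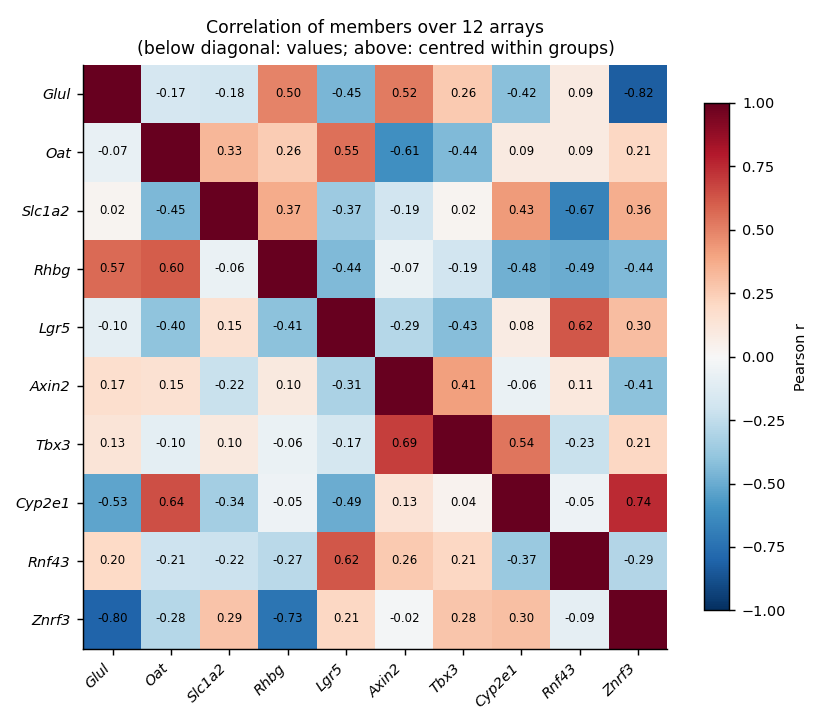
Pearson r for each of the 45 pairs of members over 12 arrays, below the diagonal from the log2 values and above it from values centred within each group of 3. The colours do not form 1 block of positive r, and r runs from −0.80 for Glul and Znrf3 to 0.69 for Axin2 and Tbx3 below the diagonal.

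The genes whose values followed Glul most closely over the 12 arrays were Mthfd2, a mitochondrial enzyme of folate metabolism (Pearson r = 0.91), Pde6d, a chaperone of prenylated proteins (r = 0.88), Gprc5b, an orphan receptor (r = 0.86), Pkm, a pyruvate kinase (r = 0.85), and Ighm, the immunoglobulin mu heavy chain (r = 0.84). These are the 5 highest of 22179 other genes, as a description, and the arrays share the 4 groups and high-fat control replicate 1, in which Glul was highest.

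Other genes of the lobule's zones and of the pathway came from lists written from general knowledge, and 0 genes of any of these lists were called in the 4 comparisons of single groups. Of 17 measured other pericentral genes, 2 were higher and 2 lower at an unadjusted p under 0.05 with the extract on the low-fat diet, and again 2 and 2 on the high-fat diet, beside 8.05% and 6.99% of all genes in either direction. In the average extract effect 5 were higher and 2 lower at such a p, beside 9.66% of all genes, and 0 were called. Cyp1a2, a cytochrome that metabolises caffeine, had an extract difference of 0.58 on the high-fat diet (SE 0.11, limma adjusted p = 0.143). Cyp3a11, the main mouse cytochrome of drug oxidation, had one of −0.97 (SE 0.19, limma adjusted p = 0.159). The average extract differences were 0.37 for Cyp1a2 and −0.70 for Cyp3a11 (limma adjusted p = 0.0859 and 0.0592). The median over the other pericentral genes was 0.08 on the low-fat and −0.10 on the high-fat diet.

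Of 15 measured periportal genes, 1 was higher and 5 were lower at an unadjusted p under 0.05 on the high-fat diet without extract, beside 6.78% of all genes in either direction, with a median of −0.11. Cps1, the first enzyme of the urea cycle, had a diet difference of −0.41 (SE 0.12, limma adjusted p = 0.508). Cyp2f2, a cytochrome of periportal hepatocytes, had an extract difference of 0.34 on the high-fat diet (SE 0.11, limma adjusted p = 0.563). Among 12 measured genes of glutamine, glutamate and proline handling, 11 lay below 0 on the high-fat diet without extract and 2 of them had an unadjusted p under 0.05. Of all 22180 genes, 11354 lay below 0 in that comparison and 6.78% had an unadjusted p under 0.05. Got1, the cytosolic aspartate aminotransferase, had a diet difference of −1.18 (SE 0.20, limma adjusted p = 0.103), and Slc7a2, a carrier of cationic amino acids such as ornithine, one of −0.37 (SE 0.14, limma adjusted p = 0.653). With the extract on the low-fat diet, where Oat fell, 6 of these 12 genes lay above and 6 below 0. In that comparison 0 of them had an unadjusted p under 0.05, beside 8.05% of all genes.

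The Wnt pathway outside the members had 0 calls in the limma fit. With the extract on the low-fat diet 8.05% of all genes had an unadjusted p under 0.05. Of 10 measured genes for Wnt ligands, R-spondins and their secretion, 1 was higher and 1 lower at such a p. They were Porcn, the acyltransferase that lipidates Wnt proteins (0.36, limma adjusted p = 0.601), and Rspo2, an R-spondin (−0.38, limma adjusted p = 0.61). Of 11 measured Wnt and R-spondin receptors, 3 were higher and 0 lower at an unadjusted p under 0.05 for the extract within the high-fat diet, beside 6.99% of all genes, with differences between −0.11 and 0.53. For the diet without extract 0 were higher and 2 lower, beside 6.78%, and 10 of the 11 lay below 0, between −0.52 and 0.01. Lgr4, an R-spondin receptor related to Lgr5, had an extract difference of 0.34 on the low-fat diet (SE 0.11, limma adjusted p = 0.434) and of 0.28 on the high-fat diet (SE 0.11, limma adjusted p = 0.661). Fzd2, a Frizzled receptor, had a diet difference of −0.52 with extract (SE 0.18, limma adjusted p = 0.999). Of 15 measured genes of the beta-catenin cascade, 1 had an unadjusted p under 0.05 with the extract on the low-fat diet, beside 8.05% of all genes. It was Apc, a part of the degradation complex (0.32, limma adjusted p = 0.554). For the high-fat extract effect 0 of them had such a p, beside 6.99%. Of 12 secreted Wnt inhibitors 0 had such a p in the 4 comparisons of single groups, beside 4.56% to 8.05% of all genes. The lowest p were those of Sfrp4, with an extract difference of 0.28 on the high-fat diet, and Notum, with a diet difference of −0.25 without extract.

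Beside the lower Oat with extract on the low-fat diet, markers of other cell types read as follows. The endothelial markers had a median of 0.27, with 7 of 7 above 0, and lay between −0.55 and 0.08 in the low-fat control arrays and between −0.05 and 0.20 in the low-fat MSX arrays. The macrophage and Kupffer cell markers had a median of 0.36, with 6 of 7 above 0, and lay between −0.50 and 0.21 and between −0.11 and 0.33. The stellate cell markers had a median of 0.16, with 8 of 8 above 0, and lay between −0.30 and −0.04 and between −0.05 and 0.24. For 5 cholangiocyte and 6 lymphocyte markers the medians were 0.07 and 0.04, and for the 7 hepatocyte markers it was 0.01. At an unadjusted limma p under 0.05, 1 endothelial and 1 stellate cell marker were higher there. By contrast, 0 macrophage and Kupffer cell markers were higher at such a p and 1 was lower, at −0.68. The cholangiocyte, lymphocyte and hepatocyte lists had 0 in either direction. Of all 22180 genes, 11032 lay above 0 in that comparison and 8.05% had an unadjusted p under 0.05. On the high-fat diet, where the extract difference of Oat was −0.41, the stellate cell markers had a median of −0.43, with 7 of 8 below 0 and 4 at an unadjusted p under 0.05, and the cholangiocyte markers one of −0.26, with 2 of 5 at such a p. The medians there were 0.10 for endothelial, −0.02 for macrophage and Kupffer cell, −0.15 for lymphocyte and 0.02 for hepatocyte markers. Of all 22180 genes, 10744 lay below 0 in that comparison and 6.99% had an unadjusted p under 0.05. High-fat control replicate 1 is among its controls, at 0.89 for the stellate cell and 0.74 for the cholangiocyte markers. The other high-fat control arrays lay at −0.15 and 0.00 for stellate cell and at −0.06 and −0.04 for cholangiocyte markers. The differences of these lists without that array were not computed. The lowest value of any marker gene was 2.73, that of the cholangiocyte marker Cftr. All values of Cftr, up to 3.83, lay below the array medians of 4.68 to 4.75. So did those of the lymphocyte marker Ms4a1, 3.45 to 4.37. No detection calls were used, and whether such dim markers were detected was not tested. The part of these cell types in the Oat differences was not tested.

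**Figure D4:**
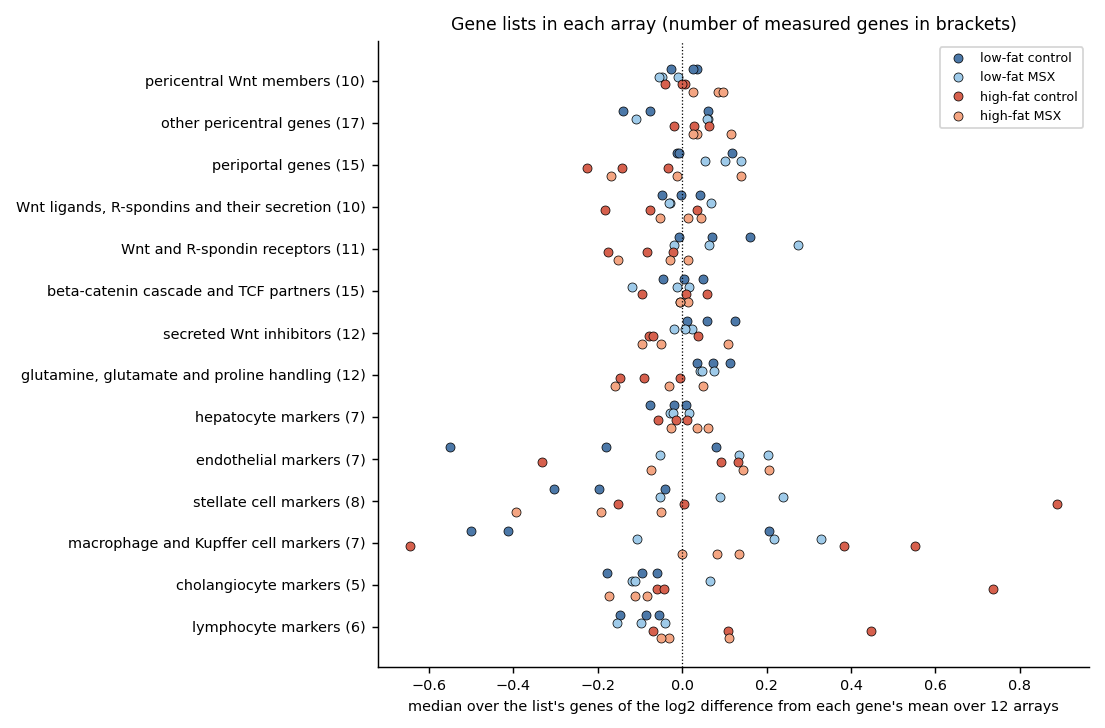
Median over each gene list of the log2 deviation of its genes from their own 12-array means, with 1 point per array coloured by group. The lists of zones and Wnt signalling stay between −0.22 and 0.27, while high-fat control replicate 1 lies at 0.89 for the stellate cell markers and 0.74 for the cholangiocyte markers.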

How the data were processed

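Liver RNA of 12 mice was measured on Affymetrix arrays. The values were used as deposited, on a log2 scale with 1 value per probe set and array. The Transcriptome Analysis Console is the tool named in the submitters' processing notes, whose version and normalization were not given in the sources used here. Array medians lay close together, and 12 arrays limit the precision.

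Probe sets with 1 symbol in the platform annotation (23521 of 41345) were reduced to the one of highest mean per gene, which left 22180 genes. The annotation listed 1814 probe sets with several symbols, 1 of them for Rhbg, and 16010 were not listed. No filter on dim genes was applied. Differences were tested two-sided with limma 3.58.1 under R 4.3.3 (lmFit and eBayes) in 1 model of 4 group means, with 8 residual and 5.18 prior degrees of freedom. P-values were adjusted by Benjamini-Hochberg over all genes within each of 7 comparisons, with a threshold of 0.05. The 95% intervals are not adjusted. Arrays within a group are biological replicates per the labels, with no batch named. A fit over all probe sets was added after the data were seen. The procedure was tested on simulated data.

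Correlations used permutation tests over all arrays without regard to group, adjusted over 45 pairs. The members, gene lists, named genes (all members, and from each list genes called or the 2 of lowest p) and alternatives were chosen with earlier results of these data known. Same-numbered arrays of different groups had r between −0.13 and 0.11 over 18 pairs, and numbers were not taken as pairs. Between low-fat control and low-fat MSX the same-numbered r were −0.017, −0.047 and −0.065. Between high-fat control and high-fat MSX they were 0.106, 0.080 and 0.112, with differently numbered arrays there between −0.089 and −0.0016.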

Additional observations from a re-analysis of the deposited data

Results flagged for a closer look

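Tbx3 had an extract difference of −0.16 on the low-fat diet (limma adjusted p = 0.78) and of 0.24 on the high-fat diet (limma adjusted p = 0.75), with every low-fat MSX array below and every high-fat MSX array above its controls. Neither difference passed the threshold. Tbx3 was flagged among the 10 members by a rule that asks for opposite extract differences without overlap on both diets. This pattern is therefore the rule itself and adds no support, and the genes meeting it among all genes were not counted. The effect on the high-fat diet exceeded that on the low-fat diet by 0.40 on the log2 scale, with an adjusted p of 0.955 for that difference in the limma fit over all genes, so that a dependence on diet did not pass the threshold.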

How the results depend on the processing

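The call of Oat on the low-fat diet rested on the settings. The count of 1 member called there was 0 with the replicate block (adjusted p = 0.0836), with only the groups compared in the fit (adjusted p = 0.224, fewer arrays for the spread) and with the mean of a gene's probe sets (adjusted p = 0.0503), with all probe sets tested (adjusted p = 0.171, more features adjusted over), and 0 without any 1 of the 6 arrays. It was 1 without dim genes, with an intensity trend, with array weights and with quantile normalization, so that 4 of 14 alternatives kept the call, at adjusted p down to 0.00669. The average extract effect of Oat kept its call in 17 of 20, the replicate block among them. The fit with only the groups compared is counted among the 17, but for this average it uses all 4 groups and equals the main fit (adjusted p = 0.0143). The count of 1 member called for the average was 0 with all probe sets tested (adjusted p = 0.0573), an alternative chosen after seeing the data. That count lay between 0 and 1 with single arrays left out. The paired fit changed no other member's call. For the extract effect of Oat on the high-fat diet 0 of 14 alternatives gave a call, at adjusted p between 0.254 and 0.784. The count of correlated pairs was 0 to 2 with single arrays left out.

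Of 1160 values of single members under alternatives, 1143 kept sign and side of the threshold or moved by less than the spread between replicates, 13 lost a call, all of Oat, 4 uncalled ones of Glul and Cyp2e1 moved by more, and 0 reversed a call. Sign changes occurred in 27, none of them where the difference was 0.2 or more. The number of all genes called moved more. With the extract on the low-fat diet it was 35, and 20 with the replicate block, 10 with only the groups compared, 67 without dim genes, 76 with a trend, 23 with the mean of probe sets, and 6 at the lowest with 1 array left out. For the average extract effect it was 58, and 147, 143 and 92 without dim genes, with a trend and with array weights, and 34 at the lowest. On the high-fat diet it was 8, and 5, 2, 14 and 31 with the block, with only the groups compared, without dim genes and with a trend, and 2 at the lowest. For the diet without extract it was 4, and 10, 15 and 1, and for the average diet effect 5, and 11, 10 and 1, without dim genes, with a trend and at the lowest. For the diet with extract and the difference of extract effects it was 0, and 1 at the highest with 1 array left out. With all probe sets tested these counts for named genes were 6, 26, 3, 1 and 1, in the order given. The cause was not tested. Dim second probe sets of Glul, Lgr5 and Axin2 went against the brighter ones in part, and no detection calls were used here.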

Other observations

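Oat is the member called for the extract on the low-fat diet and for its average over both diets. The genes nearest to Oat over the 12 arrays were looked up after its values were seen. They were Retsat, a retinol saturase (Pearson r = 0.93), Mapre3, a protein of growing microtubule ends (r = 0.93), Acot1 and Acot2, the cytosolic and the mitochondrial acyl-CoA thioesterase (both r = 0.92), and Otud7a, a deubiquitinase (r = 0.90). Spearman's rho was 0.90, 0.93, 0.86, 0.86 and 0.96. Acot1 ranged from 6.87 to 9.06 and Retsat from 10.81 to 12.13 on the log2 scale. These are the 5 highest r of 22179 other genes, given as a description with no test, and the arrays share the same 4 groups. None of the 5 is among the other members or on the zone and Wnt lists.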
